A study of Homo sapiens with 6 samples.

Results

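The epidermal growth factor (EGF) receptor family and its ligands were examined in K1 cells, an established papillary thyroid carcinoma cell line. The 10 genes chosen by symbol were the receptors EGFR, ERBB2 and ERBB3 and the ligands AREG, EREG, HBEGF, TGFA, NRG1, EPGN and BTC. All 10 were found among the 20522 rows of the library files and the 20322 rows of a table with 1 value per group. The mRNA of 3 libraries of K1 cells transfected with a negative control siRNA (NC) was compared with that of 3 libraries of K1 cells transfected with si-NEAT1_2, an siRNA against the long isoform of the lncRNA NEAT1. Both groups are transient transfections of the same line, each with a single siRNA, and the labels do not say that the libraries came from separate cultures, so p-values measure the spread between these libraries only. None of the rows carries the symbol NEAT1, so its depletion could not be checked in these values and group membership rests on the labels. Values of 3 libraries are listed in the order of their replicate numbers.

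ERBB receptors are tyrosine kinases of the cell membrane that dimerise when a ligand binds and then signal through the RAS-MAPK and PI3K-AKT pathways. EGFR is bound by AREG, EREG, HBEGF, TGFA, EPGN and BTC, whereas NRG1 binds ERBB3 and ERBB4. ERBB2 has no known ligand of its own and acts as a partner of the others, and ERBB3 has a kinase domain of very low activity. The ligands are made as membrane-bound precursors and are released by metalloproteases of the ADAM family. In thyroid carcinoma, the MAPK pathway is the one most often activated by mutation.

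The total of the expected counts lay between 22798631 and 27066025 per library. Over the 12581 genes tested with edgeR (quasi-likelihood, Benjamini-Hochberg adjusted), 0 genes (0%) had an adjusted p under 0.05 with a fold change of at least 2, whereas 3082 had an unadjusted p under 0.05. DESeq2 gave 24 genes higher and 47 lower in the si-NEAT1_2 libraries, and limma-trend on log2(FPKM + 1) gave 0 in both directions. The first principal component of the libraries held 56.4% of the variance. It was -7.73, -41.5 and -14.3 in NC and -2.58, 50.7 and 15.5 in si-NEAT1_2, so the groups did not overlap on it. The loadings of genes on it followed their GC content (Spearman's rho 0.640) and transcript length (rho -0.609, both over genes, which are not independent replicates). Values with these trends removed are therefore given as well. The removal takes no account of group, so it can also remove a difference between the groups that runs along these trends. A technical trend and such a difference cannot be told apart here. Among thyroid follicular markers, PAX8 (113 to 169 FPKM), FOXE1 and TG were above 1 FPKM in every library, while TSHR, SLC5A5 and NKX2-1 stayed under 1 FPKM. Of 6 epithelial markers, 4 were above 1 FPKM in every library, and CDH1 and KRT19 were under 1 FPKM. Of 4 leukocyte markers only CD68 was above 1 FPKM (summed level 11.8 to 13.5 in NC and 15 to 20.0 in si-NEAT1_2), with PTPRC at most at 0.110. Of 5 fibroblast markers only LUM was above 1 FPKM in every library, and their summed level was 24.9 to 29.4 in NC and 19.2 to 22.2 in si-NEAT1_2. All 3 endothelial markers were under 1 FPKM. The part of these cell markers in the results was not tested.

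Of the 7 ligand genes, 4 lie next to each other on the long arm of chromosome 4 (GRCh38) in the order EPGN, EREG, AREG and BTC, within 486214 bases. EPGN spans 74308473 to 74315307, EREG 74365143 to 74388751 and AREG 74445134 to 74455009 on the plus strand, and BTC spans 74744759 to 74794686 on the minus strand. None of the other genes listed in the files lies between them. The promoters of these 4 neighbours are shown because they include the ligands with the highest level (EREG) and the lowest level (EPGN) of the family. The sequences are the 250 bases before the RefSeq start (GRCh38.p14), at 74308220 to 74308469 for EPGN, 74364895 to 74365144 for EREG, 74444886 to 74445135 for AREG and 74794524 to 74794773 for BTC, each read along the gene's own strand. Capitals mark matches on either strand to 5 motifs: the TATA box (TATAAA), the CCAAT box (CCAAT), the GC box (GGGCGG), the cAMP response element (TGACGTCA) and the AP-1 site (TGANTCA).
EPGN: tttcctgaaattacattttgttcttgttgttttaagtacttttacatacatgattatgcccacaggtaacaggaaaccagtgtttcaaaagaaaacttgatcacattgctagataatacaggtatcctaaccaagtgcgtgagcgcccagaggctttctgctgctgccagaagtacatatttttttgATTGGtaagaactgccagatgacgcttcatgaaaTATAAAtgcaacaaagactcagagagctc
EREG: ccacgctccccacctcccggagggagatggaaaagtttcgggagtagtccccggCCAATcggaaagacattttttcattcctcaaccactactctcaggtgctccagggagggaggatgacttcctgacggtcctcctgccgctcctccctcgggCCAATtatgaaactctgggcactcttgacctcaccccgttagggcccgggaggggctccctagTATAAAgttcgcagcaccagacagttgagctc
AREG: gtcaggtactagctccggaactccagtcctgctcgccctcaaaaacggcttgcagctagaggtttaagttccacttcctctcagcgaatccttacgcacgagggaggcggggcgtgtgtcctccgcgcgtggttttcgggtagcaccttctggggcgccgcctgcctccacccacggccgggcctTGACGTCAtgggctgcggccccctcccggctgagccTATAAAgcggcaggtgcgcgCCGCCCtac
BTC: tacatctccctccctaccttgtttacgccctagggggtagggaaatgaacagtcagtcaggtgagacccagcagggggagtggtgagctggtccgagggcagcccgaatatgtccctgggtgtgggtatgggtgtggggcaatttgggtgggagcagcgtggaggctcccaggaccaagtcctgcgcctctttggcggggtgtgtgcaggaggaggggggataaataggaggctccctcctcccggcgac

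The TATA box letters stood 29 bases before the start in EPGN, 32 in EREG and 29 in AREG, and they are found in 11.1% of 27305 promoter windows of the same length. EREG had 2 CCAAT matches and EPGN had 1, against 33.0% of all windows with any. AREG held the full cAMP response element 65 bases before the start, found in 1.77% of windows, and a GC box, found in 42.3%. None of the 4 windows held the AP-1 letters (6.6% of windows), and BTC held none of the 5 motifs, which says only that these letters are absent from this window. The BTC window, placed by the RefSeq start, begins at 74794524 and so partly overlaps the BTC gene as given above, which ends at 74794686. A GC content of 38.0% set the EPGN window apart from EREG (58.0%), BTC (62.0%) and AREG (65.2%). Promoter windows were found for 8 of the 10 genes, and none was found for ERBB3 or NRG1.

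Expression levels were compared between genes as FPKM, the authors' value per transcript length and library size. EREG, which encodes epiregulin, had the highest level of the family in every library. The NC libraries had 61.4, 92.8 and 72.6 FPKM, and the si-NEAT1_2 libraries had 58.0, 36.9 and 44.9 FPKM. Its mean over the 6 libraries, 61.1, was above that of 92.8% of all genes. EGFR followed with a mean of 22.0 and ERBB2 with 17.2, and their ranges overlapped. NRG1 (mean 14.9) and TGFA (mean 13.5) could not be ordered, since NRG1 was the higher in only 3 of 6 libraries.

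A second tier lay far below. HBEGF ranged from 2.04 to 2.98 FPKM and AREG (amphiregulin) from 1.13 to 3.15, and these ranges overlapped. ERBB3 (0.470 to 1.04) and BTC (betacellulin, 0.400 to 0.880) overlapped as well. EPGN (epigen) had 1 count in NC replicate 1 and 0 counts in the other libraries, which allows up to 0.117 to 0.132 CPM (counts scaled to library size) in those libraries, and it could not be tested. The ranges over all 6 libraries were separate for the neighbours EREG and EGFR, TGFA and HBEGF, AREG and ERBB3, and BTC and EPGN. ERBB2 was above NRG1 in each of the 6 libraries, although their ranges overlapped.

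**Figure D1:**
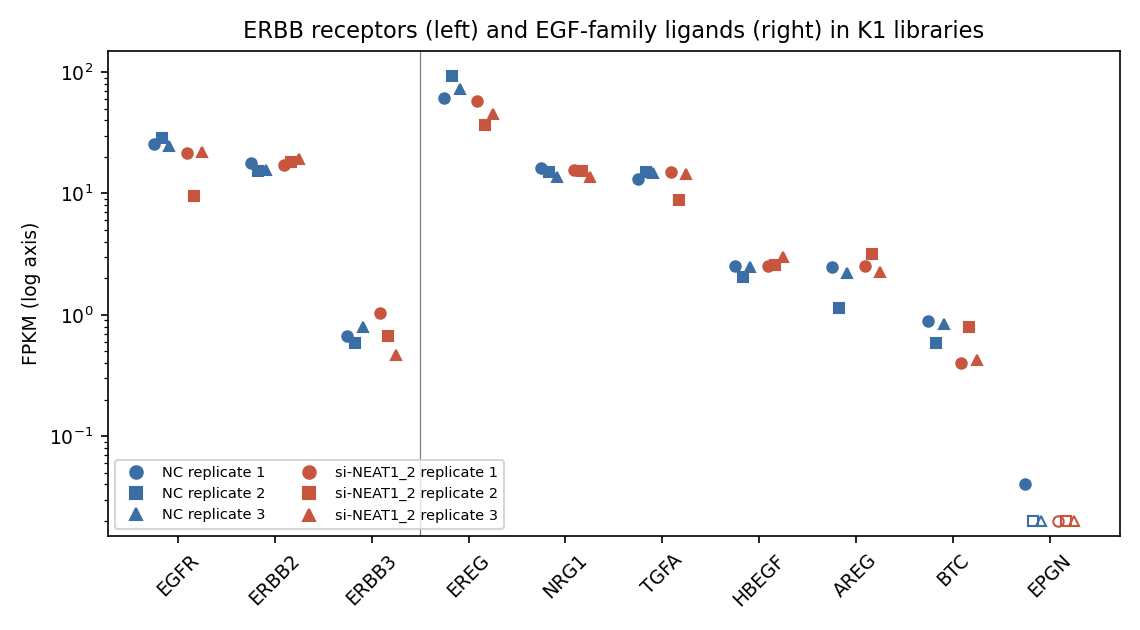
FPKM (log axis) of the 3 receptors and 7 ligands, with 1 point per library, the colour giving the group and the shape the replicate; open symbols at the foot of the axis mark libraries with 0 FPKM. EREG lies between 36.9 and 92.8 FPKM, above every other gene of the family, and EPGN is at 0 in 5 of the 6 libraries.

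EREG made up most of the ligand mRNA. Its share of the summed FPKM of the 7 ligands was 63.6%, 73.3% and 68.2% in NC against 61.7%, 54.7% and 57.0% in si-NEAT1_2, and the groups did not overlap. NRG1 and TGFA made up most of the remainder, with 11.8% to 22.8% and 11.9% to 18.4%. AREG, whose gene lies 56382 bases from that of EREG, made up 0.893% to 4.67%. The FPKM of EREG was 24.9, 82.2 and 33.0 times that of AREG in NC, against 23.1, 11.7 and 19.9 times in si-NEAT1_2. The summed ligand FPKM was 96.6, 127 and 106 in the NC libraries and 94.1, 67.5 and 78.8 in the si-NEAT1_2 libraries.

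The comparison of si-NEAT1_2 with NC asked which mRNAs change when NEAT1_2 is depleted. After filterByExpr removed genes with too few counts, 9 of the 10 genes were tested, all except EPGN. None of the 9 passed an adjusted p under 0.05 with a fold change of at least 2, as for all genes (0%). At an unadjusted p under 0.05, 1 of the 9 (EREG) was lower in the si-NEAT1_2 libraries, against 13.2% of all genes, and 0 were higher, against 11.3%. By log2 fold change, 3 of the 9 were higher and 6 were lower, with a median of -0.12 against 0.01 over all genes tested. In these bulk libraries, fewer cells that express a gene and less mRNA per cell cannot be told apart.

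Between the groups, EREG had the lowest unadjusted p of the 9 genes. In TMM-normalised read counts (CPM, here with library sizes adjusted for composition) it reached 281, 416 and 332 in NC against 266, 185 and 208 in si-NEAT1_2. All si-NEAT1_2 libraries therefore lay below all NC libraries, although si-NEAT1_2 replicate 1 and NC replicate 1 were close. The mean was 343 ± 68.0 (SD, n = 3) in NC and 219 ± 41.7 (SD, n = 3) in si-NEAT1_2, a difference of -36.0% (two-sided exact permutation test, p = 0.10, the smallest that 3 libraries against 3 allow). The log2 fold change was -0.64 (standard error 0.176, 95% interval -1.03 to -0.26), with an unadjusted p of 0.00384 and an adjusted p of 0.169 from edgeR's quasi-likelihood test. With DESeq2, EREG had an adjusted p of 0.0330 at a log2 fold change of -0.65, below the fold change of 2 that a call needs.

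The EREG mRNA is long (4619 bases) and poor in GC (36.1%), and the order of EREG over the 6 libraries was the order of the libraries on the first principal component. With the trends of GC content and transcript length removed in each library, the log2 fold change of EREG was -0.20 (95% interval -0.35 to -0.05, unadjusted p = 0.0132, adjusted p = 0.230, edgeR). In that comparison 1 of the 9 genes (EREG) was lower at an unadjusted p under 0.05, against 8.01% of all genes, and the values of AREG (0.37), EGFR (-0.22) and BTC (-0.21) were larger in size than that of EREG. The description labels carry a library code, and within code L2 (2 NC libraries and 1 si-NEAT1_2 library) the log2 ratio of mean CPM was -1.02, while within code L3 (1 library each) it was -0.43. Code L4 held 1 si-NEAT1_2 library and no NC library. Without si-NEAT1_2 replicate 1 the log2 fold change was -0.80 with an adjusted p of 0.0394 (edgeR), and leaving out NC replicate 2 gave -0.48 (adjusted p = 0.549, edgeR).

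**Figure D2:**
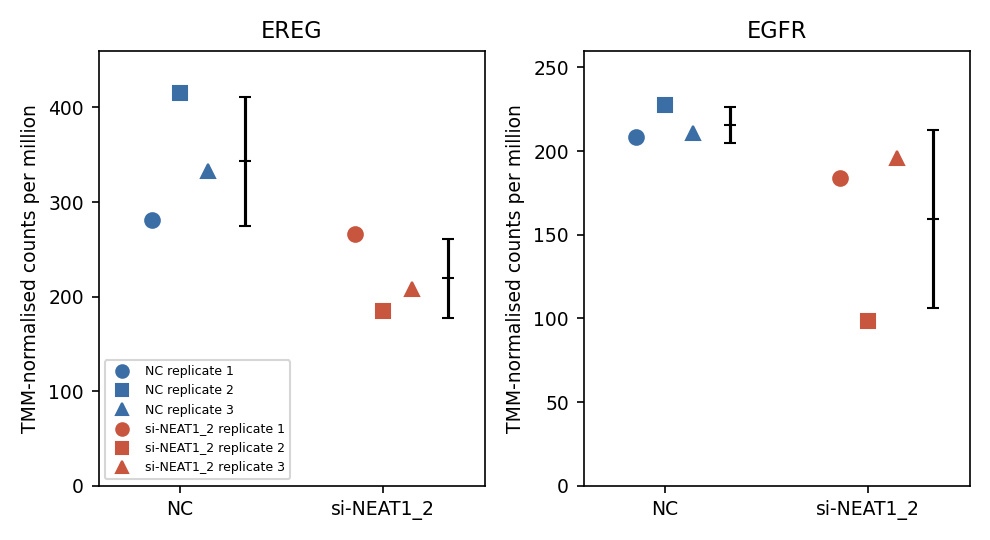
TMM-normalised CPM of EREG and EGFR, with 1 point per library and the mean with its SD (n = 3) in black beside each group. The 3 si-NEAT1_2 libraries lie below the 3 NC libraries for both genes, and si-NEAT1_2 replicate 2 is the lowest for both, at 185 CPM for EREG and 98.5 CPM for EGFR.

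Among the receptors, EGFR differed most. It had 208, 228 and 211 CPM in NC against 184, 98.5 and 196 CPM in si-NEAT1_2. The groups did not overlap, and si-NEAT1_2 replicate 2 lay far below the other 5 libraries. Its log2 fold change was -0.43 (standard error 0.215, 95% interval -0.91 to 0.04, adjusted p = 0.229, edgeR), and without that library it was -0.19 (adjusted p = 0.358). With GC and length trends removed it was -0.22 (adjusted p = 0.360). It was -0.68 (95% interval -1.20 to -0.16, adjusted p = 0.105, edgeR) with the library code as a covariate and -0.61 without si-NEAT1_2 replicate 3. The log2 ratio within library code was -1.15 in L2, which holds si-NEAT1_2 replicate 2, and -0.09 in L3. EGFR spans 55019021 to 55211628 on chromosome 7, and its longest annotated transcript has 9821 bases.

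ERBB2, the partner of the other receptors, had a positive sign. The NC libraries had 69.3, 56.9 and 65.3 CPM against 63.1, 72.7 and 80.2 CPM in si-NEAT1_2, with overlapping groups and a log2 fold change of 0.17 (95% interval -0.13 to 0.48, adjusted p = 0.429, edgeR) that was 0.06 with GC and length trends removed. The FPKM of EGFR was 1.16 to 1.87 times that of ERBB2 in 5 libraries and 0.529 times in si-NEAT1_2 replicate 2. ERBB3, the receptor that binds NRG1, had 18 to 54 counts per library, a log2 fold change of -0.14 and an interval from -1.12 to 0.85, so that at this depth a change of 2-fold downwards could not be told from none.

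Of the ligands expressed at an intermediate level, NRG1 (neuregulin 1) had 35.8, 35.8 and 37.3 CPM in the NC libraries and 32.9, 33.0 and 34.1 CPM in the si-NEAT1_2 libraries. These narrow groups did not overlap, at a log2 fold change of -0.12 (95% interval -0.40 to 0.16, adjusted p = 0.543, edgeR), but its FPKM did overlap, and with GC and length trends removed the value was 0.17. TGFA (transforming growth factor alpha) had 37.8, 45.1 and 41.5 CPM in NC and 43.4, 35.1 and 43.7 CPM in si-NEAT1_2, and its log2 fold change of -0.02 had an interval from -0.34 to 0.29. In all, 3 of the 9 genes tested (EREG, EGFR and NRG1) had groups of CPM that did not overlap with si-NEAT1_2 lower, against 14.3% of all genes, and 0 of 9 with si-NEAT1_2 higher, against 15.7%.

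AREG and HBEGF had the largest positive values, on few counts. AREG had 83, 32 and 69 counts in the NC libraries and 75, 101 and 70 in the si-NEAT1_2 libraries. The low value of NC replicate 2 and the high value of si-NEAT1_2 replicate 2 stood out, and the other 4 libraries lay close together. Its log2 fold change was 0.50 (standard error 0.335, 95% interval -0.24 to 1.24, adjusted p = 0.345, edgeR), and leaving out the former gave 0.23 and leaving out the latter gave 0.30. HBEGF (heparin-binding EGF) had 163, 111 and 150 counts in NC and 145, 157 and 179 in si-NEAT1_2, at a log2 fold change of 0.25 (95% interval -0.19 to 0.69), and at 0.10 with GC and length trends removed. BTC had 67, 37 and 60 counts in NC and 27, 58 and 30 in si-NEAT1_2, a log2 fold change of -0.43 with an interval from -1.27 to 0.41. For BTC the value was -0.89 (95% interval -1.75 to -0.03, adjusted p = 0.299, edgeR) without si-NEAT1_2 replicate 2 and -0.21 with GC and length trends removed. Of the neighbours of EREG on chromosome 4 that could be tested, BTC thus had the same sign as EREG and AREG the opposite one, and with all 6 libraries neither reached an unadjusted p under 0.05.

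**Figure D3:**
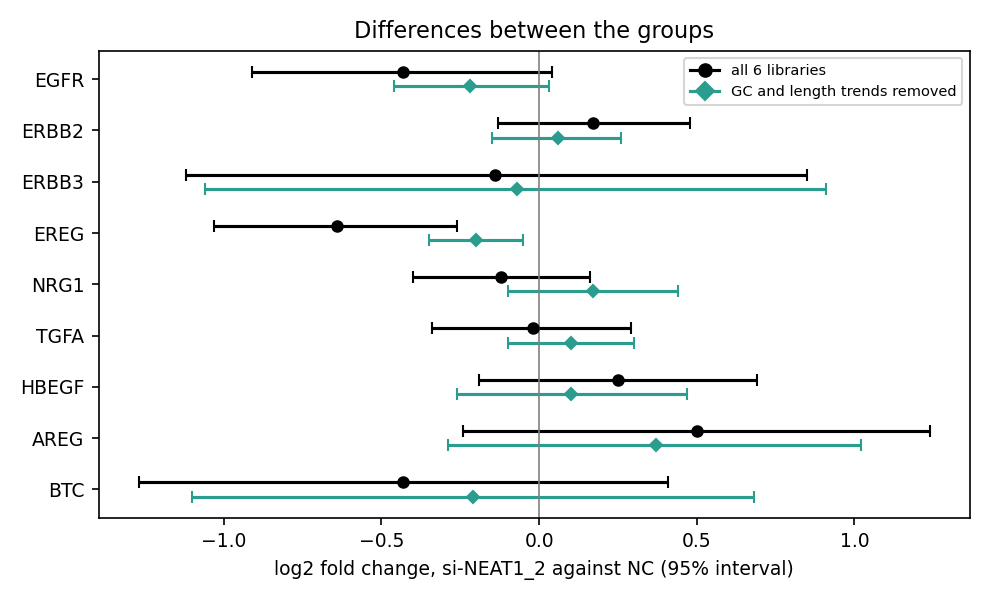
Log2 fold change (si-NEAT1_2 against NC) with its 95% interval for the 9 genes tested, from all 6 libraries (black circles) and with GC and length trends removed (green diamonds). EREG moves from -0.64 to -0.20 and is the only gene whose interval lies to the left of 0 in both fits.

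The deposited counts and FPKM values of a gene did not always move together. The length that each pair of values implies was therefore computed from the count, the FPKM and the library total. For EREG it was 4619 bases in every library, the length of its longest transcript in GENCODE release 29. For AREG it was 1238 to 1242 bases (longest transcript 1240), for HBEGF 2384 to 2390 (longest 2386) and for BTC 2798 to 2842 (longest 2816). For TGFA it was 2857 to 3091 bases in 5 libraries and 3704 bases in si-NEAT1_2 replicate 2. The FPKM of TGFA in that library (8.75, against 13.1 to 15 in the others) was accordingly lower, relative to the other libraries, than its CPM.

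EGFR had its longest implied length in the same library, 9574 bases against 8167 to 8839 in the others, so that its FPKM there (9.50) also lay further below the other libraries than its CPM. NRG1 had its shortest there, 1986 bases against 2122 to 2750. For ERBB3 the implied length ran from 900 to 2978 bases, and NC replicate 3, with the fewest counts (18), had a higher FPKM (0.790) than NC replicate 1 with 54 counts (0.670). ERBB2 ranged from 3705 to 4242 bases. GENCODE lists 11 transcripts for EGFR, 9 for TGFA and 22 each for NRG1 and ERBB2, 23 for ERBB3, 3 each for EREG, AREG and HBEGF, and 2 for BTC.

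**Figure D4:**
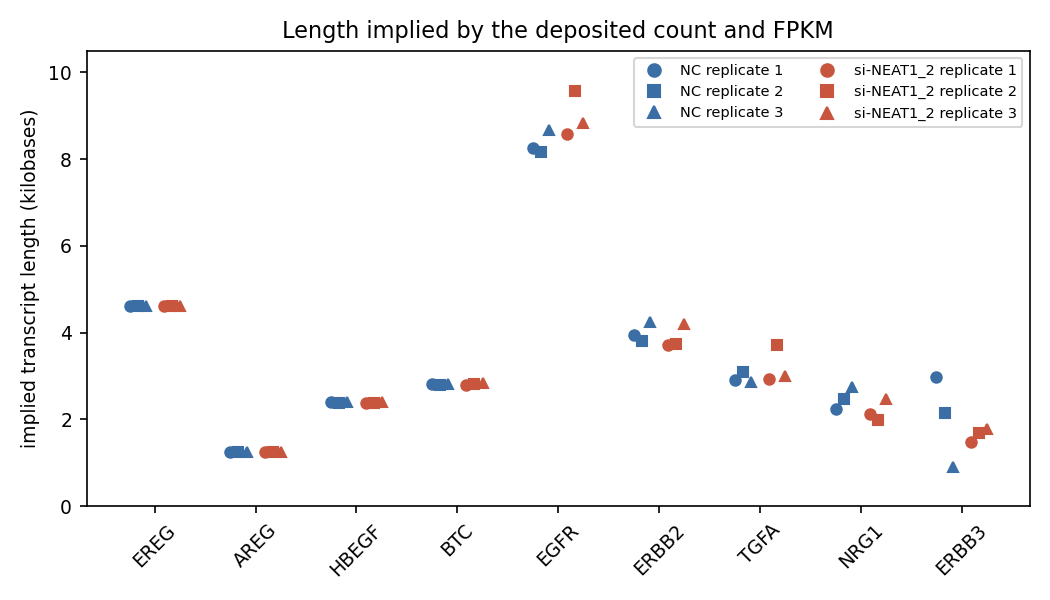
Transcript length in kilobases implied by the deposited count, FPKM and library total, with 1 point per library for the 9 genes with counts in all libraries. EREG, AREG, HBEGF and BTC are flat over the libraries, whereas TGFA and EGFR are longest in si-NEAT1_2 replicate 2 and ERBB3 spreads from 900 to 2978 bases.

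Genes with a profile over the 6 libraries most like that of the leading receptor and the leading ligand were sought among 9480 genes whose mean log2 CPM reached 3. For EREG they included FGF2 (r = 0.998) and PDS5B (r = 0.998), and for EGFR they were WNK1 (r = 0.999), DNAJC16 (r = 0.999) and CNOT1 (r = 0.997), by Pearson's r of log2 CPM as a description over 6 libraries. FGF2, the gene of basic fibroblast growth factor, had 160, 257 and 199 CPM in the NC libraries and 148, 84.7 and 104 CPM in the si-NEAT1_2 libraries. The profile was a common one, as 1519 of these genes had an r of at least 0.9 with EREG and 916 with EGFR.

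Other genes of the pathway were described from 5 lists of 65 genes, of which 61 were tested. None passed an adjusted p under 0.05 with a fold change of at least 2. At an unadjusted p under 0.05, 12 of the 61 were lower (13.2% of all genes) and 3 were higher (11.3% of all genes) in the si-NEAT1_2 libraries. With GC and length trends removed, 11 of these 12 kept a negative sign and 3 of them kept an unadjusted p under 0.05. In that corrected comparison 11 of the 61 genes were at an unadjusted p under 0.05 in either direction, against 2019 of the 12581 genes tested.

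Of the other family genes, ERBB4, NRG3 and NRG4 were at most at 0.0400 FPKM in any library and were not tested. EGF itself had 0.10 to 0.240 FPKM, and NRG2 had 0.650 to 1.54 FPKM with a log2 fold change of 0.43 (adjusted p = 0.391, edgeR).

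Of 8 genes of ligand release, 2 were lower at an unadjusted p under 0.05 (13.2% of all genes). ADAM10, a sheddase of several EGF-family ligands, had 23.4, 39.1 and 27.7 FPKM in NC and 22.9, 15.2 and 23.3 FPKM in si-NEAT1_2, at a log2 fold change of -0.51 (adjusted p = 0.169, edgeR) that was 0.09 with GC and length trends removed. For ADAM9, a related metalloprotease, the value was -0.47 (adjusted p = 0.176, edgeR), and it was -0.15 with the trends removed. ADAM17, the main sheddase of AREG, HBEGF and TGFA, was at -0.14 (adjusted p = 0.600, edgeR).

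Among 14 inhibitors and trafficking genes tested, 5 were lower at an unadjusted p under 0.05 (13.2% of all genes) and 0 were higher (11.3%), with a median log2 fold change of -0.26 that was -0.05 with the trends removed. SOCS4 (-0.93) and SOCS5 (-0.57) are suppressors of cytokine signalling that also act on EGFR, EPS15 (-0.55) takes part in the endocytosis of the receptor, and CBL (-0.53) is the ubiquitin ligase that marks activated EGFR for degradation. Their adjusted p lay between 0.169 and 0.183 (edgeR), and with the trends removed the log2 fold changes of all 5 lay between -0.41 and -0.14.

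Of the 21 adaptors and relays, 5 were lower (13.2% of all genes) and 1 was higher (11.3%) at that threshold. PIK3CA, the catalytic subunit of PI3K, had a log2 fold change of -0.84, PTPN11, the phosphatase SHP2, one of -0.61, and BRAF one of -0.59. MAP2K2, the kinase MEK2, was the gene that was higher, at 0.48, and it had 79.3, 71.5 and 81.8 FPKM in NC and 83.9, 125 and 101 FPKM in si-NEAT1_2. All 4 had an adjusted p of 0.169 (edgeR). With GC and length trends removed, their values were -0.23 for PIK3CA, -0.28 for PTPN11, -0.11 for BRAF and 0.05 for MAP2K2.

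Of 16 genes that respond to EGFR signalling, 2 were higher at an unadjusted p under 0.05, near the 11.3% of all genes, and 0 were lower, against 13.2%. With the trends removed, 4 of the 16 were at that threshold in either direction, against 2019 of the 12581 genes tested. DUSP4, a phosphatase that restrains MAP kinases, was at a log2 fold change of 0.84 (adjusted p = 0.197, edgeR) with 0.13 to 0.50 FPKM, and at 0.91 with the trends removed. IER3, an immediate early gene, was at 0.28 (adjusted p = 0.202, edgeR), which turned to -0.12 with the trends removed.

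The table with 1 value per group was set beside the libraries. It has no replicates, so its ratios carry no test. Its total count was 17678761 (NC) and 19579897 (si-NEAT1_2), each below the lowest library total of 22798631. The FPKM of HBEGF there was 31.5 (NC) and 126 (si-NEAT1_2), which is 12.5 and 42.2 times the highest library of the same group. That of EREG was 5.93 (NC) and 24.5 (si-NEAT1_2), the first 10.4 times below the lowest NC library. EPGN, at 0 counts in 5 libraries, had 3.27 and 1.76. In the table HBEGF rather than EREG was therefore the leading ligand, and the FPKM of EREG was 0.188 and 0.195 times that of HBEGF, against 14.5 to 45.5 times in the libraries.

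For some genes the NC column lay nearer to the NC libraries. ERBB2 had 18.4 for NC in the table and 15.4 to 17.8 in the NC libraries, EGFR had 16.1 against 24.5 to 28.8, and TGFA had 12.5 against 13.1 to 15. NRG1 had 13.0 for NC, near its libraries, but 44.0 for si-NEAT1_2, against 13.7 to 15.7 in its libraries. Values at least 2 times outside the range of the 3 libraries of the same group were found for 4 of the 10 genes in the NC column (EREG, HBEGF, EPGN and ERBB3) and for 5 in the si-NEAT1_2 column (HBEGF, NRG1, EPGN, ERBB3 and BTC). Over all genes these shares were 32.5% and 31.9%.

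The direction between the groups also differed between the sources. Within the table, 4 of the 10 genes had an FPKM at least 2 times higher for si-NEAT1_2, against 5.17% of all genes with an FPKM above 0.1 in either column, and 1 was at least 2 times lower, against 18.3%. The 4 were all ligands, AREG at 6.50 times, EREG at 4.14, HBEGF at 3.99 and NRG1 at 3.39, and the gene that was lower was BTC, at 2.84 times. In the libraries, the ratio of the mean FPKM of si-NEAT1_2 to NC was 1.36 for AREG, 0.616 for EREG, 1.14 for HBEGF and 0.998 for NRG1. EREG thus had opposite directions in the table and in the libraries. The receptors EGFR (0.651), ERBB2 (0.598) and ERBB3 (0.592) all had ratios under 1 in the table, whereas in the libraries the ratio of mean FPKM was 0.676 for EGFR, 1.11 for ERBB2 and 1.06 for ERBB3. KRT7, an epithelial keratin with 684 to 914 FPKM in the 6 libraries, had 1.66 and 0.693 FPKM in the table, and KRT19, with at most 0.700 FPKM in the libraries, had 29.8 and 26.7. A plain mean lies within the range of its values. The NC column lay outside the range of the NC libraries for each of the 10 genes. The si-NEAT1_2 column lay outside the range of its libraries for all of them except EGFR. Such values, and those of KRT7 and KRT19, are therefore not the means of the library FPKM as deposited. How the table was made is otherwise not given in the sources used here.

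**Figure D5:**
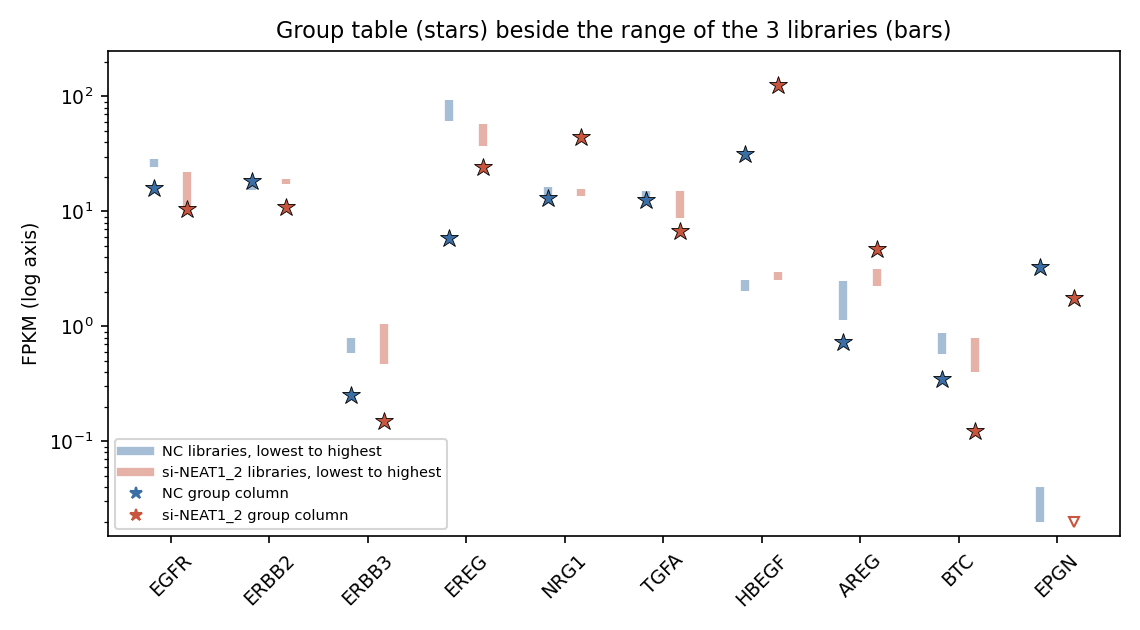
FPKM (log axis) of the 10 genes in the NC and si-NEAT1_2 columns of the group table (stars) beside the range of the 3 libraries of the same group (bars); values of 0 are drawn at the foot of the axis, and the open triangle marks EPGN at 0 in all si-NEAT1_2 libraries. The stars of HBEGF, at 31.5 and 126, and of EPGN lie far above their libraries, and the stars of EREG lie below them.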

How the data were processed

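Libraries were grouped by their labels. Per the study's methods, TopHat2 aligned the reads and RSEM estimated expression. The submitters' processing notes name fastp 0.18.0, Bowtie2 2.2.8, HISAT2, StringTie 1.3.1 and GRCh38. The deposited expected counts are estimates per gene, not normalized, and 9.19% to 9.61% of them were not whole. FPKM values were deposited beside them, computed by the authors per transcript length and library size. A table of the authors holds a count and FPKM for each group, printed as the authors' values. The annotation used by the authors is not given in the sources used here. Positions, lengths and GC content (longest basic transcript) came from GENCODE release 29 (GRCh38), which held all 19684 Ensembl identifiers. The 838 loci without such an identifier (0.336% to 0.447% of counts) were left out of the fits. All columns of sample values could be mapped.

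Counts were rounded, filtered with filterByExpr (12581 genes), normalised by TMM and compared by edgeR 4.0.16 (quasi-likelihood, R 4.3.3). Calls required a fold change of at least 2 with an adjusted p under 0.05, after the study's methods. DESeq2 1.42.0 and limma 3.58.1 were alternatives, and each was tested on simulated data. GC and length trends were removed with splines (5 degrees of freedom) per library. The genes, lists and alternatives were chosen with earlier results of these data known. All 10 members were named, and of each pathway list at most the 4 genes with the smallest unadjusted p under 0.05. For the leading receptor and ligand, up to 3 genes with the most similar profile were named. A marker and a gene of similar profile are not reported here. KRT7, KRT19, ADAM17 and the other EGF-family genes were named after their values were seen.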

Additional observations from a re-analysis of the deposited data

How the results depend on the processing

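With all 6 libraries the count of called genes was 0 higher and 0 lower. It was 0 and 1 both by library size alone and by limma-trend with a pseudocount of 0.1, 9 and 8 without a filter, 24 and 47 with DESeq2 and 1 and 3 with GC and length trends removed. Fits that left out 1 library called from 0 up to 43 genes higher and from 0 up to 292 lower, the most without si-NEAT1_2 replicate 1, and 1 and 1 without si-NEAT1_2 replicate 2. With DESeq2 and with that fit without si-NEAT1_2 replicate 1, EREG passed the adjusted p and not the fold change. EREG, EGFR, ERBB2, AREG, HBEGF and BTC kept their direction under all 17 alternatives, and none of the 9 genes was called under any. Reversed values were, for ERBB3, 0.025 and 0.027 with limma-trend (pseudocounts 1 and 0.1). ERBB3 was also reversed at 0.28 without NC replicate 1 and at 0.065 without si-NEAT1_2 replicate 3. Its other fits without 1 library stayed negative, down to -0.44. For TGFA the reversed values were 0.10 with the trends removed, with or without the replicate block. TGFA was also reversed at 0.04 without NC replicate 2 and at 0.063 without si-NEAT1_2 replicate 2. Its other fits without 1 library stayed negative, down to -0.10. For NRG1 the reversed values were 0.17 with the trends removed and 0.16 with the replicate block added. In the group table, ratios of at least 2 numbered 690 higher and 2440 lower above an FPKM of 0.1, 1997 and 3653 with any value above 0, and 379 and 1543 above 1. The cause of these changes was not tested. Libraries of the same replicate number deviated from their group means at correlations over genes of -0.290, -0.375 and -0.0199. With means of only 3 libraries, these values cannot decide whether the libraries were paired. The study's methods describe 3 pairs. With the replicate block EREG was at -0.64 (adjusted p = 0.397, edgeR) with 0 genes called. Depth limits ERBB3, AREG, BTC and EPGN, at most 101 counts in any library.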
